A study of Arabidopsis thaliana with 6 samples.

Results

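The genes described here are those whose maternal and paternal alleles could be compared at the earliest stage, in hybrid Arabidopsis thaliana embryos of 1-cell/2-cell size. Of 23874 genes with reads anywhere in the study, 5844 had at least 10 reads on variants that tell the parents apart in each of the 2 libraries of that stage, and these are the genes compared. Another 6955 genes had such reads at this stage but fewer than the minimum in at least 1 library. The 2 libraries are reciprocal crosses between Col-0 and Cvi-0, which are inbred natural accessions, with no mutation and no treatment named in the labels: a Col-0 mother with a Cvi-0 father (Col-0 x Cvi-0) and a Cvi-0 mother with a Col-0 father (Cvi-0 x Col-0). By the usual convention, the parent named first was read as the mother. Each library is linearly amplified poly(A) RNA of 1 pool of 20 embryos, which were dissected by hand from emasculated and crossed flowers about 40 h after pollination and washed. The same crosses were sampled at the 8-cell stage (about 64 h) and the 32-cell stage (about 78 h), 1 library for each cross, and there were no replicates.

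Early embryos of many animals run on RNA stored by the mother until their own genome becomes active. In flowering plants the zygote forms inside maternal tissue, next to the endosperm, the nourishing tissue that has its own doubled maternal genome and many imprinted genes, of which 1 parental allele is expressed. RNA stored in the egg would read as maternal in both directions of a cross, RNA brought by sperm or transcribed from the paternal chromosome would read as paternal, and a difference between the accessions' own alleles would change parent when the cross is reversed. Maternal RNA can also come from the seed coat, which is made wholly of maternal cells, and pieces of it can stick to a dissected embryo. In bulk RNA of this kind, fewer cells of a type and less RNA per cell cannot be told apart.

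Over the 5844 genes, maternal and paternal reads were close to balance when averaged over the crosses. The 1-cell/2-cell libraries held 1269419 (Col-0 x Cvi-0) and 1291813 (Cvi-0 x Col-0) allele reads, of which the genes compared took 97.4% and 97.7%. The median gene had 57 and 56 allele reads on 4 variants. In the single libraries, 53.6% of the compared genes' reads were maternal in Col-0 x Cvi-0 and 46.2% in Cvi-0 x Col-0. The Col-0 allele thus had more reads in each library. Averaged over the crosses, which takes out a difference between accessions, 49.92% of these genes' reads were maternal (95% interval 49.86 to 49.98). The interval covers counting error only, because several reads can stem from the same amplified molecule. The median over genes of the log2 ratio of maternal to paternal reads, averaged over the crosses with 0.5 added to each count, was 0.00. Its quartiles were -0.37 and 0.37, and its SD over genes was 0.83.

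Embryo markers dominated the tissue markers. The summed level of 8 embryo markers was 801 and 1043 RPM (the authors' gene reads scaled to the reads of each library) in Col-0 x Cvi-0 and Cvi-0 x Col-0, with GRD at 0 reads. That of 10 seed coat markers was 38.5 and 37.5 RPM with TT10 at 0, that of 10 endosperm markers 52.2 and 45.3 RPM with ZOU, MINI3 and MEA at 0, and that of 7 egg and zygote markers 47.3 and 64.6 RPM. The 9 pollen and sperm markers summed to 76.7 and 8.39 RPM, with DUO1 and MGH3 at 0. VGD1, a pollen pectin methylesterase gene, made up 69.1 and 4.08 RPM of these sums.

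Upstream sequences of 3 genes with a maternal excess in both crosses are shown because they hold the same short motif. They were picked for it among the 20 genes at least 4-fold maternal in both crosses, and PRP4, with a larger fitted ratio than TT4, GILT or BAN, does not hold it. They are the 250 bases before the annotated gene start of TT4 (chr5:4488226-4488475, plus strand), GILT (chr4:7582989-7583238, plus strand) and BAN (chr1:22792804-22793053, minus strand), from the TAIR10.1 RefSeq genome, 5′ to 3′ on the gene's strand, with the G-box CACGTG in capitals. The G-box is a palindrome, so both strands were searched at once, and it is a core bound by bHLH and bZIP transcription factors.
TT4: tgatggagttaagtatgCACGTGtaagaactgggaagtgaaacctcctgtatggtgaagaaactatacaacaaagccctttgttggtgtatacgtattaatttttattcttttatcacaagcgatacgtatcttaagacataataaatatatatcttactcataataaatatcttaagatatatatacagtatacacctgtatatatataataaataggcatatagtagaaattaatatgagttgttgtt
GILT: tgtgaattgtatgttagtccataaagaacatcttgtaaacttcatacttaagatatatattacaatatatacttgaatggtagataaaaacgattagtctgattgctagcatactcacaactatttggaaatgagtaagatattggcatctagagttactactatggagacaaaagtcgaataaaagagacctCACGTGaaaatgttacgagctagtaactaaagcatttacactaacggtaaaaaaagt
BAN: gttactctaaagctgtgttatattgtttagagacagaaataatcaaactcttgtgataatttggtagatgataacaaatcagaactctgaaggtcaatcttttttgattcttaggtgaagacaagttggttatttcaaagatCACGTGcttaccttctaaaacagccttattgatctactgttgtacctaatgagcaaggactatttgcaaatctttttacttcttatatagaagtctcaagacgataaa
Such a match was found in 3 of the 19 genes with a window among the 20 that were at least 4-fold maternal in both crosses, and in 2 of 17 (UGT73B4 and BZIP60) on the paternal side. Of 27443 windows of protein-coding genes of the same length, 1780 (6.49%) held it. The epidermal L1 box, searched as exactly TAAATGCA on both strands, occurred in 1.57% of all windows and 0 times in that of PDF1, an epidermal marker described below. Variants of the box and sequence beyond the 250 bases were not searched.

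Agreement of the reciprocal crosses was then asked for gene by gene. Reads were on the maternal side in both crosses for 955 genes and on the paternal side in both for 952, 16.3% of genes each. The Col-0 allele had more reads in both crosses for 2125 genes, and the Cvi-0 allele for 1544. At a ratio of at least 2-fold in both crosses there were 120 maternal genes (2.05%) and 108 paternal genes (1.85%), against 623 on the Col-0 and 320 on the Cvi-0 side. At least 4-fold there were 20 maternal (0.342%), 17 paternal (0.291%), 216 Col-0 and 91 Cvi-0 genes. At each size, the reads of more genes therefore followed the accession of the allele than its parent, more often on the Col-0 side. Whether reads of the 2 alleles were lost unequally in mapping was not tested. The 2 parents' counts stayed close to each other. The crosses' log2 ratios were inversely related over genes (Pearson's r = -0.50 over 5844 genes, which share libraries and are not independent), since an accession's allele changes parent between crosses.

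**Figure D1:**
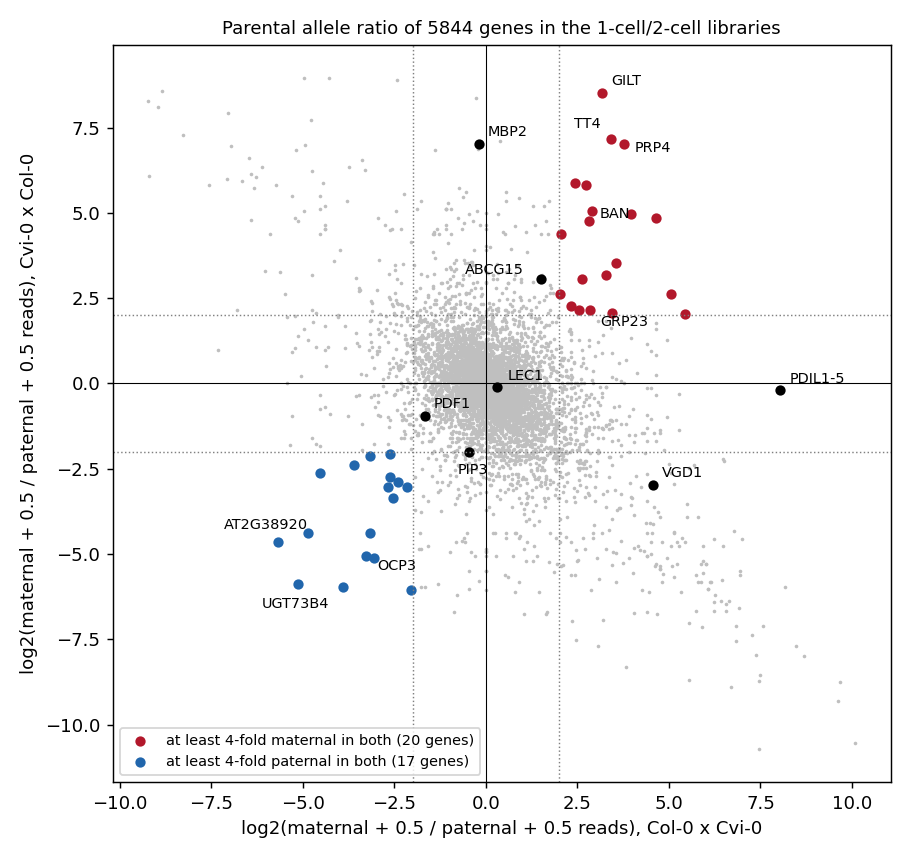
Log2 ratio of maternal to paternal reads (0.5 added to each) of 5844 genes in the Col-0 x Cvi-0 library (x axis) and the Cvi-0 x Col-0 library (y axis), 1 point per gene, with the 4-fold lines dotted. The 20 genes at least 4-fold maternal in both crosses (red) lie at the upper right and the 17 paternal ones (blue) at the lower left, while the long arms at the upper left and lower right are genes that follow 1 accession, and PDIL1-5 and MBP2 stand off in 1 cross each.

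The spread of genes around balance was narrower at higher depth. Among 1352 genes with 10 to 19 allele reads in the smaller library, the SD over genes of the mean log2 ratio was 1.2, and 65.8% of them were within 2-fold. Among 397 genes with at least 500 reads the SD was 0.22, and 99.5% were within 2-fold. Genes at least 2-fold maternal in both crosses numbered 70 in the shallowest class, then 41, 8, 1 and 0 in the classes from 20, 50, 100 and 500 reads. The paternal numbers were 55, 43, 7, 3 and 0. Genes at least 2-fold on 1 accession's side numbered 277, 303, 146, 165 and 52, which is 20.5% of the shallowest and 13.1% of the deepest class. The minimum itself marked no break: 182 genes with exactly 10 reads in the smaller library had an SD of 1.38, and 217 genes with 9, just outside, had 1.27.

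**Figure D2:**
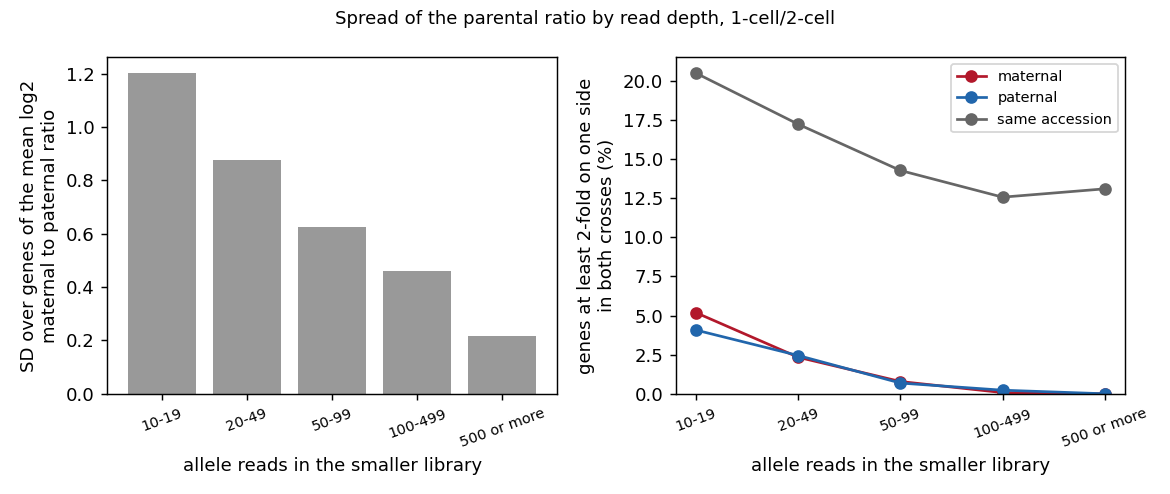
SD over genes of the mean log2 maternal to paternal ratio (left) and percentage of genes at least 2-fold on 1 side in both crosses (right), by the number of allele reads in the smaller 1-cell/2-cell library. The SD goes from 1.2 to 0.22 with depth and the maternal and paternal percentages go to 0 together, while the percentage on 1 accession's side is still 13.1% in the deepest class.

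The most abundant RNAs carried little parental difference. The 100 genes with most allele reads held 35.9% of them. Of these genes 98 had a mean log2 ratio within 0.5 of 0 and 99 within 1, and 0 were 2-fold maternal or 2-fold paternal in both crosses. The exception, AT1G10095, had a mean log2 ratio of -1.62 from reads that followed the Col-0 allele in both crosses (edgeR's quasi-likelihood test, adjusted p = 1). By chromosome the pooled maternal share was 49.8%, 49.5%, 50%, 49.9% and 50.3% for chromosomes 1 to 5.

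Genes whose RNA was lower at the 8-cell stage had median parental ratios near balance at this stage. For 24 genes at least 8-fold lower in RPM at the 8-cell stage (1 RPM added) the median log2 ratio was -0.15, for 59 genes 4-fold to 8-fold lower 0.09, and for 433 genes 2-fold to 4-fold lower 0.02. For 5212 genes within 2-fold it was 0.00, and for 93 genes 2-fold to 4-fold and 23 genes at least 4-fold higher 0.25 and 0.01. These medians are a description and were not tested.

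A difference between maternal and paternal reads of single genes was tested with edgeR's quasi-likelihood F test, fitted over all 6 libraries with library, allele genotype and parent within stage as terms and adjusted by Benjamini and Hochberg's method. No gene passed an adjusted p of 0.05 on either side (0.0% of 5844). An unadjusted p under 0.05 was reached by 318 genes (5.44%), 147 with more maternal and 171 with more paternal reads. DESeq2 called 9 genes, 5 with more maternal reads (TT4, PRP4, GRP23, ABCG15 and PDIL1-5) and 4 with more paternal reads (PIP3, UGT73B4, PDF1 and DI21). In edgeR, leaving out 1 library gave 0 to 24 calls, the most without the Col-0 x Cvi-0 library of this stage, and a filter on the mean over the 6 libraries gave 10. The smallest adjusted p in edgeR, 0.094, was shared by 7 genes, described below: TT4, GILT, PRP4, GRP23 and ABCG15 on the maternal side and PIP3 and UGT73B4 on the paternal side. In simulated counts on the same 5844 genes the test recovered 3% of genes changed 2-fold and 48% of those changed 4-fold. A 2-fold difference was thus mostly not detected by this fit, which has 2 residual degrees of freedom. Recovery was not split by read depth. The fitted 95% interval stayed inside 2-fold in 1066 genes (18.2%) and inside 4-fold in 3488 (59.7%). For the accession of the allele the same fit called 1201 of the 5844 genes.

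On the maternal side, genes of flavonoid synthesis had some of the largest ratios. TT4 encodes chalcone synthase, the entry enzyme of flavonoid synthesis (AT5G13930, chromosome 5, 4488476 to 4490264 in TAIR10.1). It had 26 maternal and 2 paternal reads in Col-0 x Cvi-0 and 71 and 0 in Cvi-0 x Col-0. Its maternal shares were 92.9% (95% Clopper-Pearson interval 76.5 to 99.1) and 100% (94.9 to 100), above 50% with both mothers. The fitted log2 ratio was 6.10 ± 0.89 (SE; edgeR adjusted p = 0.094), and 1 variant was covered. BAN encodes anthocyanidin reductase, which makes the precursors of seed coat tannins (AT1G61720, chromosome 1, 22790966 to 22792803). It had 10 and 1 reads in Col-0 x Cvi-0 and 13 and 0 in Cvi-0 x Col-0 (log2 4.75 ± 1.28, adjusted p = 0.56). All 5 of its covered variants had a maternal majority. TT6, flavanone 3-hydroxylase of the same pathway, was not maternal in both crosses to the same degree: 29 and 22 reads in Col-0 x Cvi-0, a share of 56.9% (42.2 to 70.7), against 68 and 0 in Cvi-0 x Col-0 (log2 2.74 ± 0.81, adjusted p = 0.607). Below the read minimum, TT18, leucoanthocyanidin dioxygenase, had 23 and 0 reads in Col-0 x Cvi-0 and 7 and 0 in Cvi-0 x Col-0. TT3, dihydroflavonol reductase, had 6 and 1, then 5 and 0. STK, a MADS-box gene of ovule and seed coat, had 8 and 1, then 29 and 7. Of 10 genes of the seed coat and flavonoid list with some allele reads below the minimum, 9 had more maternal reads over both crosses and 1 had more paternal reads. That one was ATS, a KANADI gene of the ovule coat, with 0 and 5, then 3 and 2. TTG1, a regulator of tannin synthesis, was close to balance, with 6 and 7, then 2 and 0.

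The seed coat and flavonoid list thus had 4 genes in the comparison of 23 listed: 3 with a maternal majority in both crosses, 1 with a paternal majority, 2 at least 2-fold maternal, 0 called and a median log2 ratio of 3.76, against 0.00 over all 5844 genes tested. The fourth gene was GL2, a homeobox gene of epidermal cells, with 7 maternal and 8 paternal reads, then 8 and 9. The 14 listed genes with any allele reads had 337 maternal and 68 paternal reads at this stage. The 10 seed coat markers, a shorter list without TT6, GL2, TTG1, ATS, TT5, TT19 and MUM4, had 205 and 12. TT4 gave 97 and 2 of these, leaving 108 and 10. Their part in the maternal excess of other genes was not tested.

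GILT had the most allele reads of the 20 genes at least 4-fold maternal in both crosses. GILT, a gene of the gamma interferon-responsive lysosomal thiol reductase family (AT4G12960, chromosome 4, 7583239 to 7584759), had 94 maternal and 10 paternal reads in Col-0 x Cvi-0 and 184 and 0 in Cvi-0 x Col-0. Its shares were 90.4% (83 to 95.3) and 100% (98.0 to 100), the fitted log2 ratio was 5.29 ± 0.83 (adjusted p = 0.094), and all 9 covered variants had a maternal majority. The size of that ratio differed by library: the fit gave 1.58 (adjusted p = 1) when the cross with the Cvi-0 mother was left out, and 12.36 when the other was. PRP4, a proline-rich cell wall protein gene (AT4G38770, chromosome 4, 18096606 to 18098633), had 20 and 1 reads, then 64 and 0 (log2 6.54 ± 1.02, adjusted p = 0.094), with a maternal majority at all 11 variants. LTP6, a lipid transfer protein gene, had 13 and 2, then 29 and 0 (log2 4.45 ± 0.96, adjusted p = 0.317). PIP2A, a plasma membrane water channel gene, had 18 and 2, then 16 and 0 (log2 4.37 ± 1.51, adjusted p = 0.752), and its fitted ratio was 1.32 without Cvi-0 x Col-0 and 8.99 without Col-0 x Cvi-0. For each of these genes the paternal reads were all in the Col-0 x Cvi-0 library, where the father is Cvi-0.

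The other maternal genes with the largest ratios were shallow and of mixed function. PI-4KBETA2, a phosphatidylinositol 4-kinase gene, had 12 maternal reads and 0 paternal in Col-0 x Cvi-0 and 14 and 0 in Cvi-0 x Col-0. Against a floor of 3 reads over both libraries, the maternal allele was at least 8.67-fold higher (adjusted p = 0.427). AT2G31940, annotated as an oxidoreductase, had 23 and 1, then 15 and 0, and AT4G00520, of the acyl-CoA thioesterase family, had 17 and 1 in each cross. AT3G24510, a defensin-like gene, had 14 and 1, then 22 and 2, and AT2G34840, a coatomer epsilon subunit gene, had 16 and 2, then 28 and 0. Their adjusted p-values ran from 0.32 for AT3G24510 to 0.74 for AT2G31940. The paternal reads of each were 2 or fewer in each library.

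GRP23 and ABCG15 had smaller ratios, with at least 5 paternal reads in each library. GRP23 here is AT2G32690, a glycine-rich protein gene (chromosome 2, 13863635 to 13864710), chosen for description after its values were seen, as were PDIL1-5, DI21, PDF1, AT5G47350, UGT73B5 and AT1G10095. It had 46 maternal and 6 paternal reads in Col-0 x Cvi-0 and 42 and 9 in Cvi-0 x Col-0. The shares of 88.5% (76.6 to 95.6) and 82.4% (69.1 to 91.6) had overlapping intervals, and the log2 ratio was 2.55 ± 0.42 (adjusted p = 0.094). ABCG15, an ABC transporter gene (AT3G21090, chromosome 3, 7391286 to 7395096), had 109 and 38, then 45 and 5 (log2 2.1 ± 0.36, adjusted p = 0.094). Both crosses lay on the maternal side, at 74.1% (66.3 to 81.0) and 90.0% (78.2 to 96.7). Of the 16 covered variants of ABCG15, 13 had a maternal and 3 a paternal majority.

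**Figure D3:**
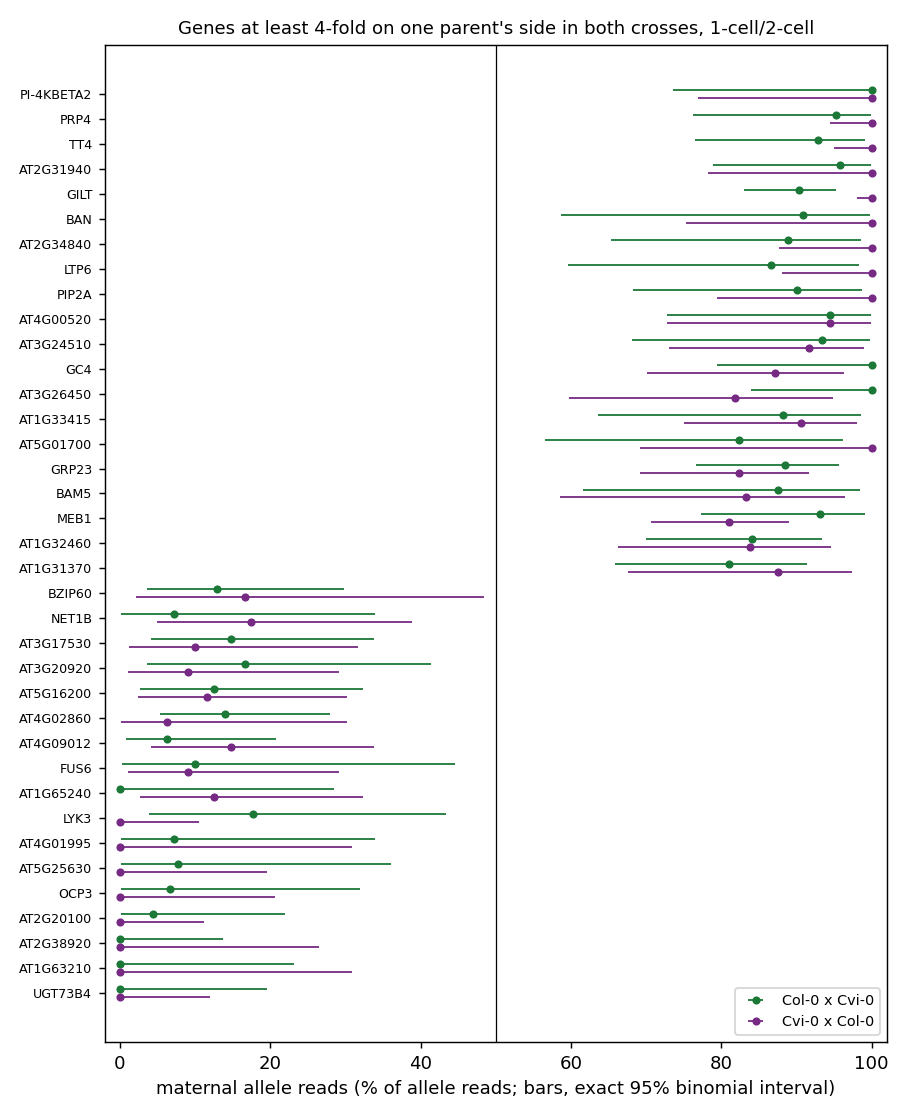
Maternal percentage of allele reads of the 37 genes with a 4-fold or larger excess of the same parent in both crosses, with exact 95% binomial intervals, Col-0 x Cvi-0 in green and Cvi-0 x Col-0 in purple. The intervals of the 20 maternal genes lie above 50% and those of the 17 paternal genes below it, as the choice of these genes brings about, and most intervals are wide.

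On the paternal side the largest ratios also rested on few reads. UGT73B4, a UDP-glucosyltransferase gene (AT2G15490, chromosome 2, 6761635 to 6763500), had 0 maternal and 17 paternal reads in Col-0 x Cvi-0 and 0 and 29 in Cvi-0 x Col-0. Against that floor, the maternal allele was at least 15.3-fold lower (adjusted p = 0.094), with a paternal majority at all 7 variants. Its annotated span lies within that of the neighbouring paralog UGT73B5 (chromosome 2, 6758430 to 6763501), which had 7 and 23, then 0 and 31. Reads of these genes cannot be told apart with certainty, so they count as 1 locus rather than as separate cases. The 15.3-fold value leaves out the maternal reads of UGT73B5. It also rests on allele counts that exceed the gene reads of UGT73B4, 11.5 and 20. AT2G38920, a SPX and RING finger protein gene, had 0 and 25, then 0 and 12 (12.3-fold lower from the mother against the floor, adjusted p = 0.626). AT1G63210, an Spt6-like gene, had 0 and 14, then 0 and 10 (8.00-fold lower against the floor, adjusted p = 0.718).

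AT2G20100, a bHLH transcription factor gene, had 1 maternal and 22 paternal reads in Col-0 x Cvi-0 and 0 and 31 in Cvi-0 x Col-0, with a paternal majority at all 8 variants (log2 -6.07 ± 1.32, adjusted p = 0.284). OCP3, a homeobox gene of pathogen resistance, had 1 and 14, then 0 and 16. AT4G01995, which RefSeq relates to the carotene isomerase D27, had 1 and 13, then 0 and 10. These genes had at most 1 maternal read in either library. AT5G25630, a tetratricopeptide repeat-like gene, had 1 and 12, then 0 and 17, and FUS6, subunit 1 of the COP9 signalosome, had 1 and 9, then 2 and 20. AT5G16200 had 3 and 21, then 3 and 23, and AT1G65240, an aspartyl protease gene, had 0 and 11, then 3 and 21. All 6 genes from OCP3 to AT1G65240 had a higher adjusted p than AT2G20100. Among the other genes past 4-fold was BZIP60, a transcription factor of the unfolded protein response, with 4 and 27, then 2 and 10. LYK3, a LysM receptor kinase gene, had 3 and 14, then 0 and 33. Below the read minimum, the GDSL lipase gene AT1G71691 had 0 and 31, then 1 and 7.

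PIP3, PDF1 and DI21 had a moderate paternal excess at high depth. PIP3, a plasma membrane aquaporin gene (AT4G35100, chromosome 4, 16708361 to 16710407), had 590 maternal and 814 paternal reads in Col-0 x Cvi-0 and 322 and 1304 in Cvi-0 x Col-0. The maternal shares of 42.0% (39.4 to 44.7) and 19.8% (17.9 to 21.8) were both under 50% and differed between crosses. The log2 ratio was -1.24 ± 0.18 (adjusted p = 0.094), and 22 of 23 variants had a paternal majority. PDF1, a gene marking the protoderm, the embryo's first epidermis (AT2G42840, chromosome 2, 17826071 to 17827648), had 78 and 249, then 86 and 166 (shares 23.9% and 34.1%; log2 -1.31 ± 0.25, adjusted p = 0.133). DI21, a drought-induced gene (AT4G15910), had 423 and 527, then 258 and 775 (log2 -0.95 ± 0.18, adjusted p = 0.144). In all 3 genes the paternal reads exceeded the maternal ones in both libraries.

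Some large imbalances were present in 1 cross and absent from the other. PDIL1-5, a protein disulfide isomerase gene, had 131 maternal and 0 paternal reads in Col-0 x Cvi-0 but 40 and 46 in Cvi-0 x Col-0. MBP2, a myrosinase-binding protein gene, had 40 and 46, then 196 and 1. AT4G15165 had 43 and 66, then 109 and 2, and AT5G47350 had 51 and 62, then 165 and 0. In these genes 1 library was near balance or paternal and the other nearly wholly maternal, so they do not meet the request for agreement whatever their fitted ratio (4.42 ± 0.82 for PDIL1-5, adjusted p = 0.133). At the 8-cell stage PDIL1-5 followed the Col-0 allele, with 78 and 0 reads in Col-0 x Cvi-0 and 3 and 73 in Cvi-0 x Col-0. AT4G15165 followed the Cvi-0 allele there, with 2 and 84, then 151 and 22. MBP2 was maternal with both mothers at the 8-cell stage, with 45 and 0, then 142 and 0. VGD1 had 200 and 8, then 2 and 19, and so followed the Col-0 allele.

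The later stages gave a repeat of the same measure in libraries that did not choose these genes. Of the 20 maternal genes, 13 had at least 10 allele reads in both 8-cell libraries, and 8 of them were again at least 2-fold maternal in both crosses: PRP4, TT4, GILT, BAN, LTP6, GRP23, BAM5 and AT3G26450. Over all 4974 genes measurable there the share was 1.51%. At the 32-cell stage 10 were measurable and 4 were at least 2-fold maternal (TT4, GILT, BAN and LTP6), against 0.392% of 5106 genes. Of the 17 paternal genes, 9 were measurable at the 8-cell stage and 1 was again at least 2-fold paternal, AT4G02860, against 0.764% of genes. At the 32-cell stage 10 were measurable and 0 were, against 0.215%. Most maternal genes with enough reads thus kept their side at the 8-cell stage, and most paternal ones did not.

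Over both crosses, TT4 had 151 maternal reads and 1 paternal read in 8-cell embryos and 178 and 0 in 32-cell embryos. BAN had 57 and 0, then 97 and 0, LTP6 63 and 0, then 175 and 2, and GILT 239 and 1, then 72 and 0. GRP23 went another way: its maternal share was 85.4% (77.1 to 91.6) at first, then 71.4% (61.4 to 80.1) in 8-cell and 52.4% (49.4 to 55.3) in 32-cell embryos. Its level was 4.87 and 6.72 RPM in Col-0 x Cvi-0 and Cvi-0 x Col-0 at the first stage and 63.2 and 60.5 RPM at the last. PI-4KBETA2 had 39 maternal and 24 paternal reads at the 8-cell stage, a share of 61.9% (48.8 to 73.9). AT2G34840 had 11 and 53. Of these, 1 and 2 were from the cross with the Col-0 mother, and 10 and 51 from the reverse cross. Among its 32-cell reads, the former cross gave 25 and 7 and the latter 10 and 32, which followed the Col-0 allele.

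On the paternal side UGT73B4 had 94 maternal and 89 paternal reads at the 8-cell stage, a share of 51.4% (43.9 to 58.8). OCP3 had 26 and 13, LYK3 69 and 60, and AT5G25630 36 and 22, all as sums of both crosses. By cross, UGT73B4 had 75 and 51 in Col-0 x Cvi-0 and 19 and 38 in Cvi-0 x Col-0. OCP3 had 2 and 4, then 24 and 9, so both genes changed sides between the crosses. AT2G20100 kept a paternal majority in the sums, with 1 and 33, then 6 and 28, but its Col-0 x Cvi-0 libraries held 3 and 4 reads there. The maternal share of PIP3 in the sums was 30.1% (28.5 to 31.8), then 44.6% (42.8 to 46.5), then 50.3% (49.2 to 51.4) from stage to stage. By cross, PIP3 had 620 and 583, then 606 and 937 at the 8-cell stage. At the 32-cell stage it had 2555 and 1690, then 1523 and 2341, so it changed sides between the crosses at both stages. The maternal share of PDF1 in the sums was 28.3% (24.7 to 32.2), then 43.1% (42.1 to 44.1), then 51.1% (50.4 to 51.8). PDF1's own level was 97.4 and 79.8 RPM at the 1-cell/2-cell stage and 3179 and 2227 RPM at the 32-cell stage. LEC1, a regulator of embryo identity, was near balance throughout, at 51.2%, 49.2% and 50.2%.

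**Figure D4:**
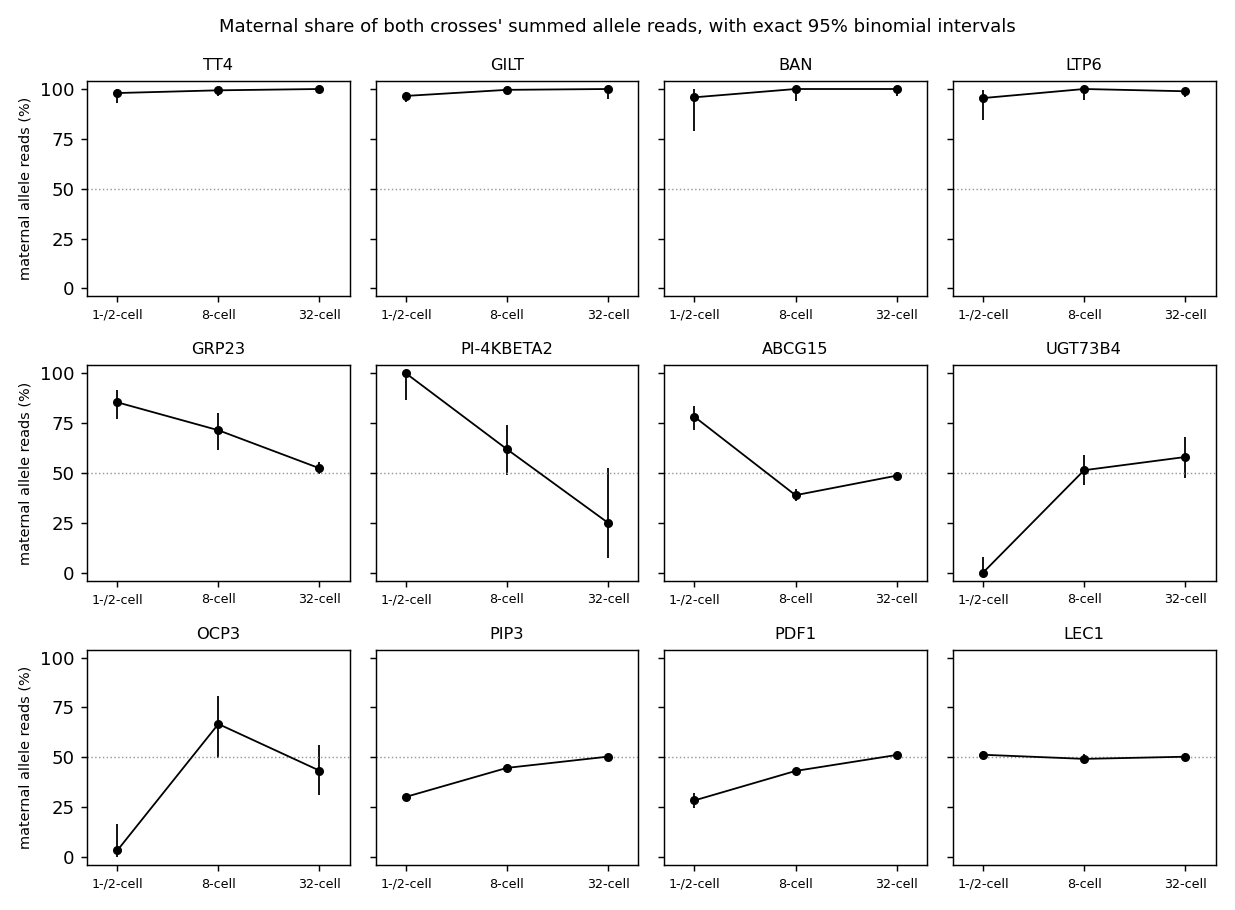
Maternal percentage of the allele reads of both crosses summed, over the 3 stages, for 12 genes, with exact 95% binomial intervals and 50% dotted. TT4, GILT, BAN and LTP6 stay near 100%, while GRP23, ABCG15, UGT73B4, PIP3 and PDF1 lie near 50% at the 32-cell stage in these sums.

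The difference between the 1-cell/2-cell ratio and the mean of the later ones was tested in the same fit, and 0 of 5844 genes (0.0%) passed. An unadjusted p under 0.05 was reached by 251 genes, and DESeq2 called 1, ABCG15. The smallest adjusted p in edgeR, 0.294, belonged to ABCG15, AT4G15165 and UGT73B4. ABCG15 went from a maternal share of 78.2% (71.7 to 83.7) to 38.8% (35.7 to 42.0) in 8-cell and 48.6% (46.9 to 50.4) in 32-cell embryos, a log2 difference of 2.54 ± 0.41. PIP3 followed (-1.10 ± 0.22, adjusted p = 0.595), then MBP2 (adjusted p = 0.967). GRP23 (1.81 ± 0.49, adjusted p = 0.971) and PDF1 (-1.14 ± 0.29, adjusted p = 0.967) did not pass either.

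Genes of the embryo's own programme were measured from both parents. Of 44 listed patterning genes 16 were in the comparison: 4 maternal in both crosses, 5 paternal in both, 7 following the accession, 1 at least 2-fold maternal, 0 called, with a median log2 ratio of -0.02 against 0.00 over all genes. LEC1 had 642 maternal and 520 paternal reads in Col-0 x Cvi-0 and 728 and 784 in Cvi-0 x Col-0 (log2 0.10 ± 0.18). WOX2, a homeobox gene of the apical cell line, had 435 and 481, then 353 and 413 (log2 -0.18 ± 0.30). Both genes had 46.1% to 55.2% maternal reads in each library. HDG11, a homeobox gene that activates the zygote's WOX genes, was the 2-fold gene, with 10 and 3, then 18 and 0 (3.32 ± 1.31, adjusted p = 0.852). WOX8, of the suspensor line, had 84 and 34, then 90 and 80 (0.72 ± 0.42). YDA, the kinase of the zygote's first asymmetric division, had 51 and 20, then 40 and 31. On the other side GN, the vesicle-trafficking factor GNOM, had 13 and 26, then 11 and 34 (-1.31 ± 0.60). None of these passed the test.

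Of 28 cell cycle and cytokinesis genes 9 were measured, 1 maternal in both crosses and 2 paternal, 0 at least 2-fold, 0 called, with a median log2 ratio of -0.08. PCNA2, the sliding clamp of DNA replication, had 962 and 954, then 695 and 834 (-0.13 ± 0.16), and MCM2, of the replicative helicase, 309 and 258, then 136 and 176. KN, the cytokinesis syntaxin KNOLLE, had 64 and 18, then 126 and 143 (0.78 ± 0.24, adjusted p = 0.684). Of 28 chromatin and small RNA genes 16 were measured, 2 maternal and 2 paternal in both crosses, 11 following the accession, 0 called, median -0.03. VIM1, a cofactor of DNA methylation, had 931 and 611, then 563 and 930, and AGO4, of RNA-directed DNA methylation, 480 and 785, then 774 and 633. Both genes changed sides between the crosses. MET1, the maintenance DNA methyltransferase, had 46 and 43, then 28 and 5 (1.28 ± 0.56, adjusted p = 0.899).

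The cuticle and lipid transfer list had 7 of 23 genes measured, 3 maternal and 1 paternal in both crosses, 2 at least 2-fold maternal (LTP6 and ABCG15), 0 called, median 0.04. LTP3, the deepest, had 5828 and 4063, then 4667 and 7975 (-0.13 ± 0.14), and LTP4, its neighbour and paralog, 229 and 185, then 294 and 223 (0.36 ± 0.29). Members of 1 family thus ranged from balanced LTP3 to LTP6. Of 13 aquaporins 3 were measured: PIP2A on the maternal side, PIP3 and PIP1B on the paternal side (median -0.27, 0 called), with PIP1B at 29 and 36, then 34 and 40. Of 18 nuclear photosynthesis genes 7 were measured, 4 maternal and 1 paternal in both crosses, 0 called, median 0.90. Their mean log2 ratios ran from -1.01 to 3.24, and the members given next are on the maternal side. RBCS2B, a Rubisco small subunit gene from a family of near-identical copies, had 8 and 3, then 55 and 1 (3.47 ± 1.01, adjusted p = 0.661). LHCB4.2, a light-harvesting protein gene, had 216 and 82, then 103 and 84 (0.84 ± 0.34), and RCA, Rubisco activase, 36 and 18, then 34 and 19 (0.92 ± 0.69).

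Endosperm, gamete and imprinted genes were mostly too shallow to compare. SUC5, a sucrose carrier of endosperm, had 18 and 22, then 23 and 15 (log2 0.17 ± 0.81), the 1 measured gene of 15. NRPD1, the large subunit of RNA polymerase IV and 1 of 11 listed maternally expressed imprinted genes, had 65 and 21, then 26 and 47 (0.38 ± 0.52). Of 9 paternally expressed imprinted genes 0 were measured. EC1.5, which encodes a gamete-activating peptide of the egg cell, had 47 and 9 reads in Col-0 x Cvi-0 and 38 and 66 in Cvi-0 x Col-0 (0.75 ± 0.72), the 1 measured gene of 8, and VGD1 was the 1 measured gene of 17 on the pollen and sperm list (0.71 ± 0.89). None of these 4 genes kept its side in both crosses, and 0 were called.

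**Figure D5:**
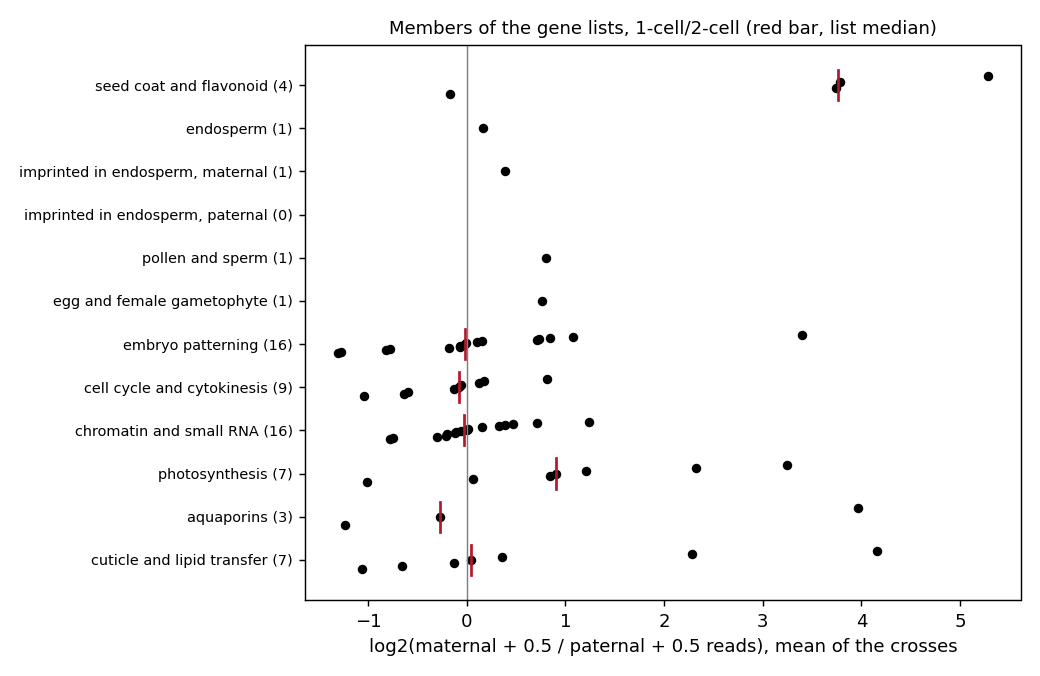
Mean over the crosses of the log2 ratio of maternal to paternal reads (0.5 added) for each measured member of 12 gene lists, with the number of members in parentheses and the median as a red bar. The seed coat and flavonoid list has its median at 3.76, while embryo patterning, cell cycle and chromatin genes lie about 0, with medians from -0.08 to -0.02.

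Genes at least 4-fold on 1 parent's side in both crosses were of low abundance and few reads. Of the 20 maternal genes 12, and of the 17 paternal genes 13, had 10 to 19 allele reads in the smaller library. Ratios spread more widely at few reads, so this low level cannot be told apart from how the genes were chosen. The 20 maternal genes had a median level of 4.72 RPM (1.16 to 90.3) and the 17 paternal genes one of 4.85 RPM (1.23 to 92.2), against 26.4 RPM over all 5844 genes. Among 1190 genes under 10 RPM the SD of the mean log2 ratio was 1.23, and among 85 genes with at least 1000 RPM it was 0.19. The 95% interval of the maternal share left 50% on the mother's side in both libraries for 124 genes (2.12%), on the father's side for 133 (2.28%), on the Col-0 side for 884 and on the Cvi-0 side for 487.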

How the data were processed

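Values are reads of poly(A) RNA from 6 libraries of 20 embryos each. Per the file headers, the deposited allele columns are counts of reads overlapping Col-0 or Cvi-0 variants of each gene. The deposited gene reads come in steps of 0.5 and were taken as estimated counts, and the authors' RPM is scaled to the reads of each library. Text lists of reads per variant, also deposited, gave the number of variants and a single-variant alternative, and carry no positions. The mapper was Bowtie and the build TAIR10, per the submitters' processing notes (the Bowtie version is not given in the sources used here), and libraries kept the strand, per the labels' protocols. Variant-based assignment can lose reads with unlisted variants, and 30 further columns were not used.

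Allele counts of 12 columns were fitted in edgeR 4.0.16 (R 4.3.3, limma 3.58.1; glmQLFit, glmQLFTest) with library, genotype and parent within stage, the library's allele total as the same offset for both its columns, and Benjamini-Hochberg adjustment at 0.05. Since no group has a replicate, the 2 residual degrees of freedom come from stages and crosses, and a p-value measures the spread in this fit, not that between repeated samples. The biological coefficient of variation was 30.3%. For 11 genes no standard error could be given. In the test on simulated counts, 100 of the 5844 genes were changed 2-fold and 100 were changed 4-fold, with 3 and 48 recovered. Among the genes left unchanged there were 3 false calls. DESeq2 1.42.0 was an alternative. Shares have exact Clopper-Pearson intervals (scipy 1.17.1), and a fold against 0 reads uses a floor of 3 reads over both libraries. In some genes the allele counts exceeded the gene reads. UGT73B4 had 17 and 29 allele reads against 11.5 and 20 gene reads. MBP2 had 196 maternal reads against 169.5 gene reads in Cvi-0 x Col-0. Allele counts may thus not each be a separate read, so intervals may be too narrow and floor folds too large. The reason was not tested.

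Genes and lists were chosen with earlier results of these data known, so list values are descriptions. Named were the 10 largest ratios per parent among genes at least 4-fold in both crosses, the 5 smallest p of the change between stages, the 2 genes on each side nearest the threshold, and the 2 deepest and any 4-fold members of each list; others named were chosen after their values were seen. TAIR10.1 (RefSeq) gave names, coordinates and upstream sequence, and 5821 of the 5844 genes matched it by locus.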

Additional observations from a re-analysis of the deposited data

How the results depend on the processing

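The maternal share of all genes' allele reads averaged over the crosses, 49.95%, was 50.05% without the 100 deepest genes, and between 49.91% and 50% counted over the compared genes, as their median or from 1 variant per gene. The number of genes called for unequal parental reads, 0, stayed at 0 with TMM scaling and with minimums of 5 or 20 reads. It was 9 in DESeq2, 36 of 15828 genes with no filter (20 maternal, 16 paternal), 7 with 1 variant per gene, 2 with 1 parent effect for both later stages, 10 with the 1-cell/2-cell and 8-cell libraries alone, and 10 of 6988 (6 and 4) with a mean of at least 10 reads over the 6 libraries, an alternative chosen after seeing the data. Leaving out 1 library gave 0 to 24 genes: 24 and 6 without the earliest-stage libraries, 0 and 1 without those of 8-cell and 13 and 10 without those of 32-cell embryos, each time with the Col-0 mother first. GILT and PIP3 were called in 8 of 13 alternatives that kept both 1-cell/2-cell libraries, PDF1 and TT4 in 7. Genes called for the change between stages, 0, numbered 1 in DESeq2, 17 with no filter and 0 to 5 when leaving out a library (5 without either 1-cell/2-cell library, 2 without either 32-cell library). The 37 genes at least 4-fold in both crosses became 100 with a minimum of 5 reads, 12 with 20, 228 at 2-fold, 14 at 8-fold and 19 with 1 variant per gene, and were 52 and 26 with 0 or 2 reads added and 34 without genes of 1 variant, the last chosen after seeing the data. The causes were not tested. For 30 genes followed over the alternatives, 0 reversed direction. These include the 10 largest ratios per parent, chosen for being at least 4-fold on 1 side in both crosses, so their direction was largely fixed by that choice. With 1 of the earliest-stage libraries left out, the fitted log2 ratio moved by more than 1 in 16 of them, most in GILT (5.29 to 1.58 or 12.36), AT5G47350 (2.91 to 1.02 or 9.26), AT2G34840 (4.33 to 1.5 or 9.44) and PIP2A (4.37 to 1.32 or 8.99), the lower value each time without the library with the Cvi-0 mother. No paired analysis was possible because each group holds 1 library, and the alleles of a library are already compared within it.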
